A study of Sorghum bicolor with 24 samples.

Results

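A set of 147 genes, of 34117 in the deposited count table, was shared by the epidermis and the pith parenchyma of the sorghum stem and was low in 3 vascular cell types. The genes were chosen by their own values in the captured libraries. Each had a median of at least 20 CPM (a gene's counts divided by its library's total, times 1000000) in both epidermis and pith parenchyma. The lower of these 2 medians was at least 4 times the highest median among phloem, vascular parenchyma and xylem sclerenchyma, and the 2 medians differed by less than 4 times. A limit of 300 genes was not reached. Differences between these captured types are therefore given below as descriptions, and only whole stem, which took no part in the choice, is a measure the choice did not use.

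All samples came from Sorghum bicolor cultivar Wray, grown in a greenhouse with 14-h days and sampled as vegetative plants aged 74 days. The internode at phytomer 8, the youngest that had finished elongating, was collected from 4 plants as biological replicates, and 20 µm cryosections were cut by laser to collect 5 cell types apart from each other. The groups were epidermis, pith parenchyma, phloem, vascular parenchyma, xylem sclerenchyma and whole stem, with 4 libraries each. The vascular parenchyma of the sample titles appears as xylem parenchyma in the collection protocol. Whole stem was bulk tissue of the same internodes, taken without laser capture. No treatment or genotype differed between the groups.

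The epidermis is the outer cell layer of the stem and carries the cuticle that limits water loss. Pith parenchyma is the thin-walled ground tissue that fills the centre of the stem, and in sweet sorghums such as Wray it is the tissue that stores sucrose in its vacuoles. Phloem carries sugars from the leaves, xylem carries water, and xylem sclerenchyma cells form thick, lignified secondary walls. None of the deposited identifiers matched the gene table at hand, so the genes are given by identifier, with no product or role, and the labelled cell types could not be checked against marker genes. CPM is not divided by transcript length, so values rank the counts of a gene and not its transcript number against other genes.

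Library totals ran from 2769555 to 38880291 counts over the 20 captured libraries and from 16189208 to 29605470 over the whole stem libraries. Among epidermis, phloem, vascular parenchyma and xylem sclerenchyma libraries, replicates 1 and 2 were shallower than replicates 3 and 4. Epidermis replicates 1 and 2 and phloem replicate 3 stood apart by the number of genes above 1 CPM, at 10439, 10911 and 11021, against at least 13378 in each of the other 17 captured libraries. Without these epidermis replicates the choice gave 125 genes, 105 of them among the 147, and without all 3 libraries it gave 124, with 101 shared. The labels give no molecular identifiers, so floors and intervals cover counting error only.

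The 147 genes together took up a few percent of the counts in epidermis and pith parenchyma and less than 1% in the vascular types. In epidermis their share of the library total was 5.99%, 3.44%, 3.32% and 2.09% in replicates 1 to 4. Pith parenchyma held 5.51%, 2.99%, 2.36% and 6.25% in the same order. The highest of the 12 vascular libraries, xylem sclerenchyma replicate 4, held 0.326%, and the lowest, phloem replicate 2, held 0.118%. The groups did not overlap, which follows from the choice. Whole stem libraries held 2.36%, 2.13%, 2.37% and 3.53%, inside the range of the epidermis and pith libraries in 4 of 4 and above all vascular libraries.

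**Figure D1:**
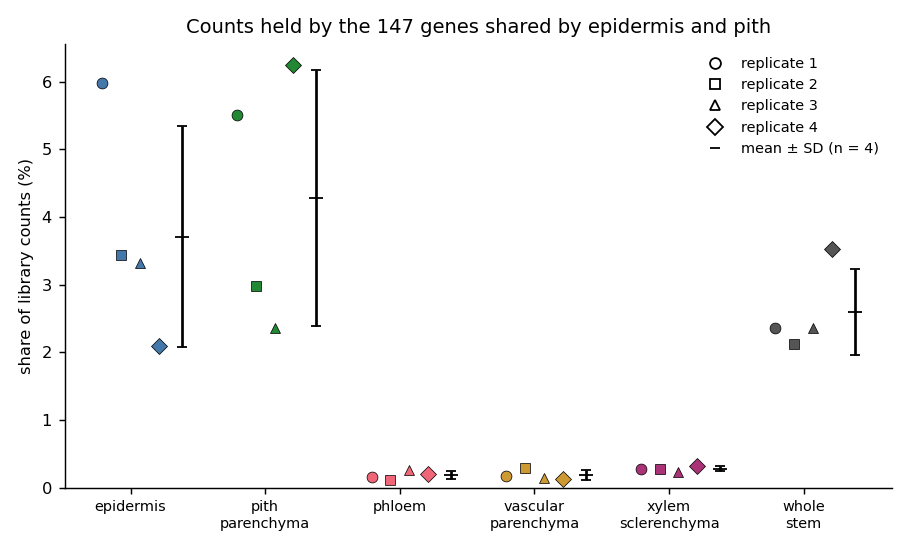
Share of all library counts (vertical axis, percent) held by the 147 genes in each of the 24 libraries, with a dash and error bar for the mean and SD of each group's 4 libraries. Vascular libraries lie between 0.118% and 0.326%, whole stem between 2.13% and 3.53%, and epidermis and pith parenchyma between 2.09% and 6.25%.

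The mean share was 3.71 ± 1.64% for epidermis, 4.28 ± 1.89% for pith parenchyma and 2.60 ± 0.634% for whole stem (SD, n = 4 each). Phloem had 0.185 ± 0.0604%, vascular parenchyma 0.186 ± 0.0763% and xylem sclerenchyma 0.281 ± 0.0396% (SD, n = 4 each). Epidermis and pith parenchyma differed by less than their spread. A few genes carried much of the sum. Sobic.008G031000 alone made up 19.5% of the set's CPM in epidermis, 13.1% in pith parenchyma and 21.1% in whole stem, on average over 4 libraries. The 10 genes with the highest lower medians made up 47.0% in epidermis and 45.0% in pith parenchyma.

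The rest of the set was spread over a wide range of lower values. The lower of the 2 medians ran from 20.1 to 4315 CPM, with a median of 57.0 CPM over the 147 genes. It reached 100 CPM in 55 genes, 500 CPM in 11 and 1000 CPM in 3. The genes nearest to the level limit had lower medians of 20.1 CPM for both inside it and 19.8 and 19.7 CPM outside it. Set against the highest vascular median, the lower median was 4.01 to 827 times higher in the 144 genes where that vascular median was above 0, with a median of 8.18 times. It was at least 10 times higher in 60 genes, 20 times in 31 and 50 times in 13. The nearest genes on either side of the limit of 4 had ratios of 4.01 and 4.07 inside and 3.90 for both outside. In 3 genes all vascular medians were 0.

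Sobic.008G031000 had the highest lower median. It stood at 14917, 6859, 7384 and 2301 CPM in epidermis replicates 1 to 4 and at 3787, 6413, 3943 and 4688 CPM in pith parenchyma. Phloem had 139, 89.9, 74.9 and 145 CPM. Values in vascular parenchyma were 458, 339, 72.1 and 216 CPM, and those in xylem sclerenchyma 454, 150, 236 and 461 CPM. Its transcript was thus present in every vascular library, from 7172 counts over the 4 phloem libraries to 22944 over xylem sclerenchyma, and below the lowest epidermis or pith library in all 12. Whole stem had 4385, 6469, 5758 and 3923 CPM, which overlapped both epidermis and pith parenchyma. The log2 difference from whole stem was 0.76 (SE 0.48) in epidermis and -0.06 (SE 0.26) in pith parenchyma, and neither was called (edgeR, Benjamini-Hochberg adjusted p = 0.451 and 0.958).

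Sobic.009G161500 followed, at 3683, 2676, 1729 and 462 CPM in epidermis. Its pith parenchyma values were 2601, 250, 1942 and 4338 CPM, so that replicate 2 lay far below the other 3. Vascular values ran from 15.0 CPM in phloem replicate 2 to 227 CPM in vascular parenchyma replicate 3, just under the lowest pith library. Whole stem was at 788, 506, 807 and 1484 CPM, with its highest value in replicate 4, the number that was also highest in pith parenchyma.

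The genes with the largest ratio had vascular medians of 0. Sobic.006G264900 had vascular medians of 0 and counts in 3 of 12 vascular libraries, at 1.62 CPM in phloem replicate 4, 3.54 CPM in vascular parenchyma replicate 2 and 0.145 CPM in xylem sclerenchyma replicate 4. Its pith parenchyma values were 173, 0.447, 9.34 and 155 CPM, and its epidermis values 6.59, 63.6, 14.3 and 43.2 CPM. The lowest pith library was thus below the highest vascular one although the medians were far apart. In whole stem it had 31.3, 14.3, 17.4 and 36.3 CPM, and here as in pith parenchyma replicates 1 and 4 were the highest. Sobic.002G311000 was at 44.2, 88.3, 9.93 and 14.4 CPM in epidermis and at 29.4, 19.2, 9.94 and 23.2 CPM in pith parenchyma. It had 0 counts in all 4 phloem libraries, 1 count in vascular parenchyma and 11.5 CPM in xylem sclerenchyma replicate 3, with 0 in the other 3 libraries of that type. Whole stem held it at a nearly constant 19.3, 20.5, 18.6 and 19.6 CPM.

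**Figure D2:**
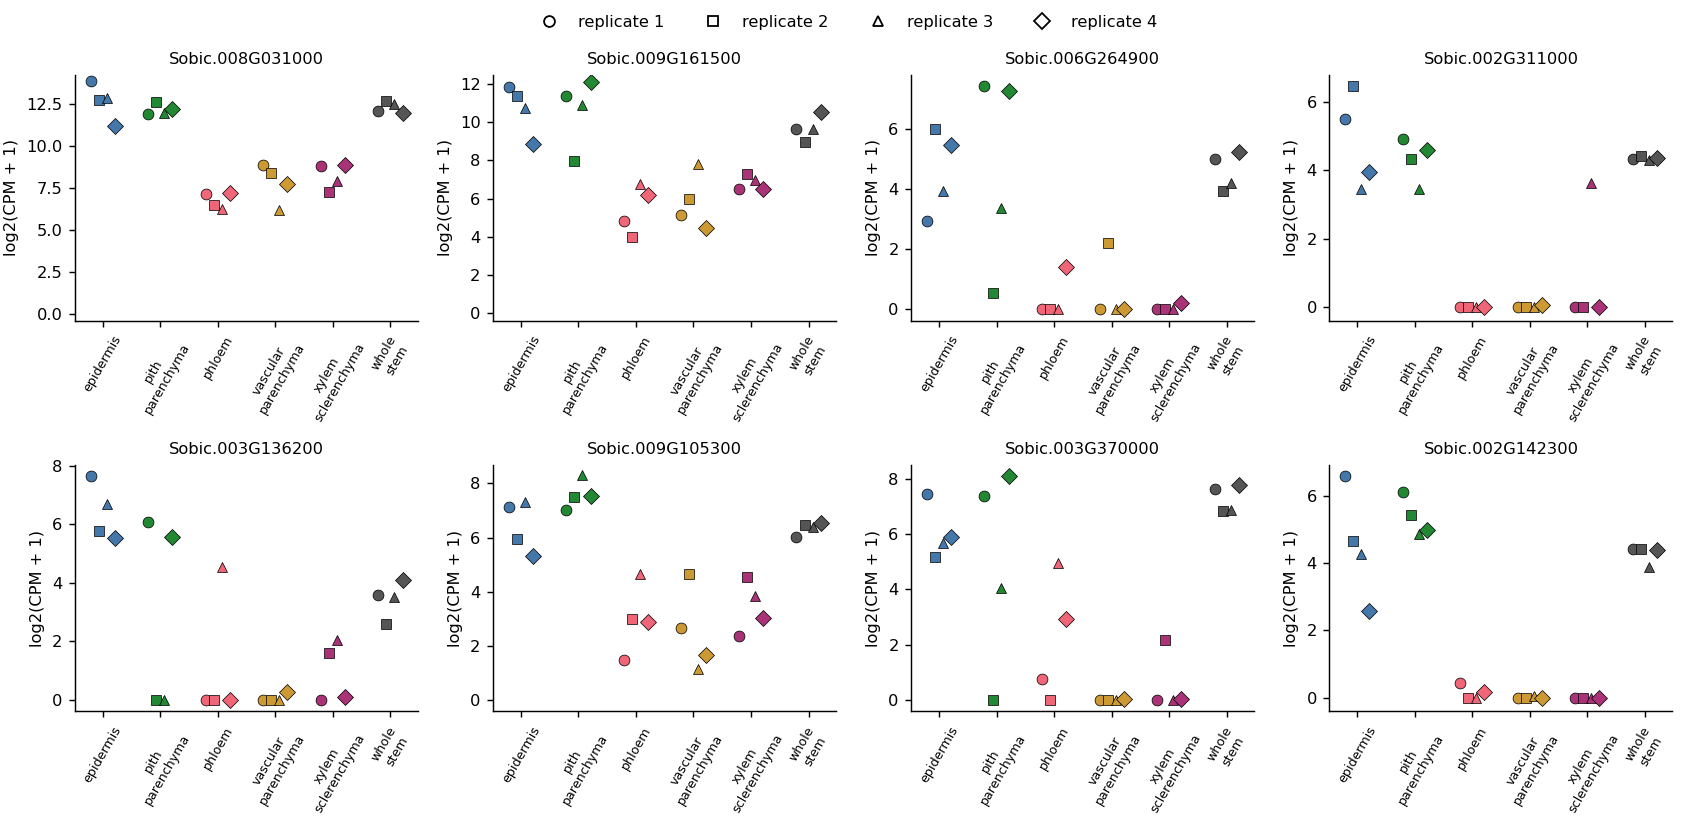
Values of the 8 genes named in the text, as log2(CPM + 1) on the vertical axis, in the 4 libraries of each group, with a symbol for each replicate number. Epidermis, pith parenchyma and whole stem points lie mostly high and vascular points mostly low, with single exceptions such as phloem replicate 3 in Sobic.003G136200 at 22.2 CPM and pith parenchyma replicates 2 and 3 of the same gene at 0.

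Medians hid much variation between single libraries. All 8 epidermis and pith libraries lay above all 12 vascular libraries in 75 of the 147 genes, against 0.651% of the 29497 genes above 0 in any library. The choice used these values, so nothing is read from that count. In the other 72 genes at least 1 library crossed over. Pith parenchyma replicate 2 was below the highest vascular library in 35 genes and epidermis replicate 4 in 22, while pith parenchyma replicates 1 and 4 were so in 6 and 7. On the vascular side, phloem replicate 4 was above the lowest epidermis or pith library in 34 genes and vascular parenchyma replicate 2 in 33, the highest numbers of the 12, and phloem replicate 2 was so in 12, the lowest. For none of the 147 genes was a vascular library the highest of the 20 captured ones.

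**Figure D3:**
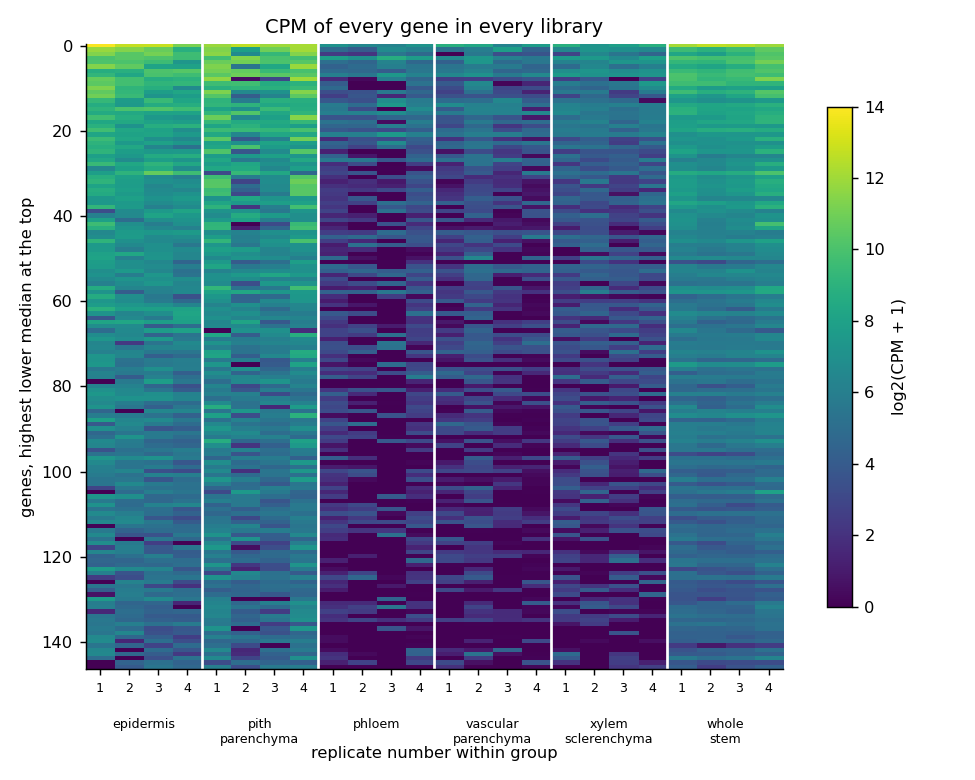
Level of each of the 147 genes (rows, ordered by the lower of the epidermis and pith parenchyma medians) in each of the 24 libraries (columns), as log2(CPM + 1) in colour. Dark cells at 0 number 78 in phloem replicate 3, against 0 to 5 in the epidermis and pith libraries and 0 in whole stem.

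Absence from the vascular types was rarely complete. No gene of the set was at 0 in all 12 vascular libraries, and 76 reached 20 CPM in at least 1 of them. A phloem library had 18 to 30 of the genes at or above 20 CPM, a vascular parenchyma library 17 to 38 and a xylem sclerenchyma library 26 to 38. The corresponding numbers were 118 to 135 in epidermis, 107 to 142 in pith parenchyma and 118 to 133 in whole stem. Genes at 0 numbered 3 to 78 per phloem library, with the 78 in replicate 3, one of the libraries with few detected genes, and 63 in replicate 2, which had 3658511 counts. The floor of 3 counts was 0.109 CPM in phloem replicate 3 and 0.820 CPM in phloem replicate 2, so a 0 limits the level to different values in these libraries.

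Among the vascular types, xylem sclerenchyma came nearest to the limit most often. It had the highest vascular median in 91 of the 144 genes with one above 0, or 63.2%, compared with 26 genes for phloem and 27 for vascular parenchyma. Over the 5795 genes that met the same level and balance limits without the limit on vascular types, the 147 included, xylem sclerenchyma had the highest vascular median in 37.9%. The median over the set was 6.27 CPM in xylem sclerenchyma, 3.43 CPM in phloem and 3.59 CPM in vascular parenchyma. The vascular values were part of the choice, and these shares were not tested.

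In the fit across all genes, the mean of epidermis and pith parenchyma exceeded the mean of the 3 vascular types for 137 of the 147 genes at a Benjamini-Hochberg adjusted p under 0.05 in edgeR and at least a 2-fold difference. Of all 19502 genes tested, 8.13% were called in that direction. None of the 147 was called higher in the vascular types, against 9.38% of all genes. The choice used this contrast, and nothing is read from the counts. Without epidermis replicates 1 and 2 the count was 128, and without phloem replicate 3 as well it was 130. In these fits 14.0% and 15.7% of all genes were called in either direction, against 17.5% with all libraries. The median log2 difference was 4.38 over the set and -0.06 over all genes tested. Fits with 2 libraries per type called 96 of the genes within replicates 1 and 2 and 54 within replicates 3 and 4, where 8.84% and 3.29% of all genes were called in either direction. Medians within each of these sets had the lower of epidermis and pith parenchyma above the highest vascular type in 145 and 142 of the 147 genes. They had it at least 4 times above in 116 and 92. The same libraries made the choice, so nothing is read from these numbers, which were not counted over all genes.

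Whether the set leaned to one of its own 2 types was considered next. Pith parenchyma had the higher median in 95 genes (64.6%) and epidermis in 52. Over the 5795 genes within the same level and balance limits, pith parenchyma was higher in 53.9%. These medians were part of the choice, and the shares were not tested. In the edgeR fit, the median log2 difference of epidermis minus pith parenchyma was -0.12 over the set and -0.11 over all genes tested. The difference was below 0 in 86 of the 147 genes and above 0 in 61, where 44.9% of all genes were above 0. The ratio of the pith to the epidermis median was 1.21 at its own median over the set, with quartiles of 0.814 and 2.06. It was at least 2 in 38 genes and at most 0.5, that is 2 times higher in epidermis, in 17. Medians within 1.5 times of each other were found in 62 genes. At the limit of 4, the nearest genes inside had ratios between the 2 medians of 3.96 and 3.87, and the nearest outside 4.02 and 4.10.

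Few genes separated the libraries of the 2 types. All 4 pith parenchyma libraries lay above all 4 epidermis libraries in 4 genes, against 4.6% of genes above 0 in any library, and the reverse held in 4 genes, against 2.71%. Between the 2 types edgeR called 0 of the 147, against 2.55% of all genes tested. An unadjusted p under 0.05 was reached by 3 genes, against 14.9% of all genes. DESeq2 called 0 of the set and 8.73% of all genes. With sample quality weights, limma voom called 12, with 7 of them higher on the epidermis side, and 8.55% of all genes, so the share of the set was near that of all genes. The limit of 4 times on the medians was part of the choice, so the low number is no finding.

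**Figure D4:**
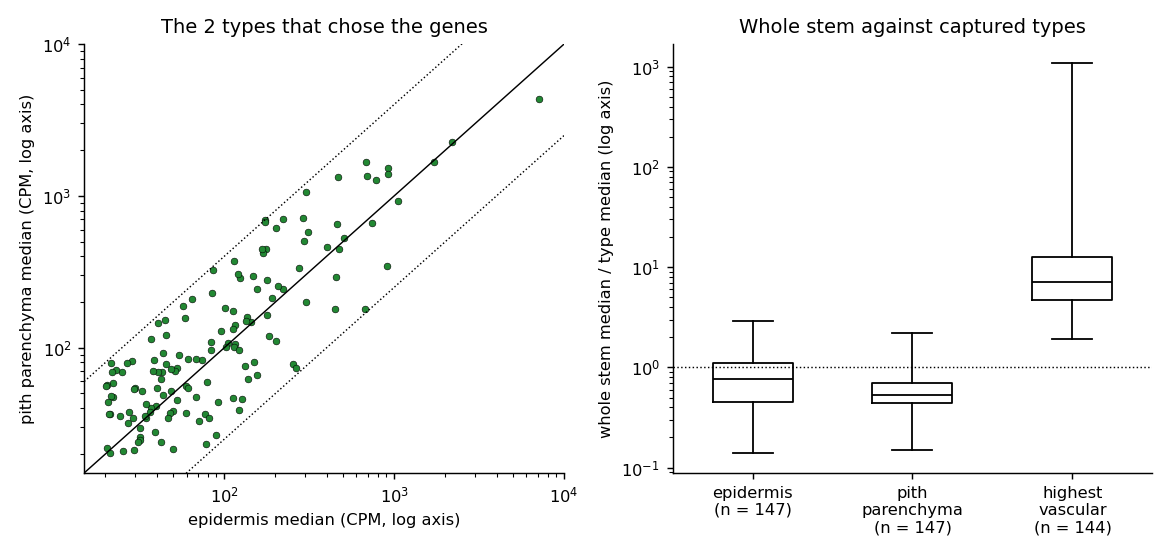
Left, pith parenchyma against epidermis median of each of the 147 genes (CPM, log axes), with lines at equality and at 4 times. Right, ratio of the whole stem median to the epidermis, the pith parenchyma and the highest vascular median (log axis; box, quartiles and median; whiskers, full range), with medians of 0.77, 0.525 and 7.02.

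Whole stem libraries, which the choice did not use, contained the whole set. Each of the 147 genes was above 0 in all 4 whole stem libraries, 146 were above 1 CPM in all 4, and 109 were at or above 20 CPM in all 4. The whole stem median ran from 3.62 to 5072 CPM, with a median of 50.8 CPM over the set. In all 147 genes each of the 4 whole stem libraries exceeded the highest vascular median. All 4 also lay above all 12 vascular libraries in 122 genes, against 8.44% of the 29497 genes above 0. The vascular libraries were chosen to be low in these genes, and that share is therefore no measure of whole stem alone.

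Compared with the types that define the set, whole stem tended to be lower. Its median was below both the epidermis and the pith median in 94 genes, between them in 46 and above both in 7. The ratio of the whole stem to the pith parenchyma median had a median of 0.525 over the set, with quartiles of 0.443 and 0.692. The same ratio against epidermis was 0.77, with quartiles of 0.449 and 1.12. Over the 5795 genes within the level and balance limits, the medians of these ratios were 1.02 for pith parenchyma and 1.08 for epidermis. Against the highest vascular median the set's ratio was 7.02. In bulk tissue, a smaller share of cells of a type and less RNA per cell cannot be told apart. The epidermis and pith medians took part in the choice, which required them to be high.

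The order of the genes by level was similar in whole stem and pith parenchyma. Spearman's rho of the group medians across the 147 genes was 0.91 between whole stem and pith parenchyma, 0.796 between whole stem and epidermis and 0.781 between epidermis and pith parenchyma. Whole stem correlated with xylem sclerenchyma, phloem and vascular parenchyma at 0.746, 0.681 and 0.65. Across the 5795 genes the values were 0.846 for pith parenchyma, 0.726 for epidermis and 0.81 for xylem sclerenchyma. These are descriptions across genes that share libraries and are not independent.

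Few of the differences from whole stem were called in the types that define the set. Between epidermis and whole stem, 14 of the 147 genes were higher in epidermis, against 3.44% of all 19845 genes tested, and 0 were higher in whole stem, against 9.13%, in edgeR at the same thresholds. The median log2 difference was 0.68 over the set and -0.31 over all genes. At an unadjusted p under 0.05 there were 43 genes in either direction, against 21.7% of all genes. DESeq2 called 27 higher in epidermis and 1 higher in whole stem, and 19.2% of all genes in either direction, so its share of the set was near that of all genes. Without epidermis replicate 4 the 14 became 26, with 1 gene called higher in whole stem, where 19.3% of all genes were called in either direction. There were 7 without whole stem replicate 2 or 3, where 9.88% and 9.75% of all genes were called in either direction. Without epidermis replicates 1 and 2 there were 27 higher in epidermis and 6 in whole stem, a smaller share than the 29.0% of all genes called in that fit.

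Sobic.003G136200 had the largest called difference of this kind whose libraries did not overlap. It was at 199, 54.2, 102 and 45.3 CPM in epidermis and at 11.1, 5.01, 10.5 and 15.9 CPM in whole stem, so every epidermis library exceeded every whole stem library. Its log2 difference was 3.37 (SE 0.62, edgeR, Benjamini-Hochberg adjusted p = 0.0072). With the replicate number as a block it was 3.28, and the call was lost (edgeR, adjusted p = 0.0775). In pith parenchyma it had 66.4 and 46.2 CPM in replicates 1 and 4 and 0 in replicates 2 and 3. Without overlap, all 4 epidermis libraries exceeded all 4 whole stem libraries in 21 genes of the set, against 3.69% of genes above 0, and the reverse was seen in 3, against 23.8%.

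Fewer genes were called between pith parenchyma and whole stem, in the set and over all genes. In either direction, 4.58% of all genes were called, against 12.6% for epidermis. edgeR called 3 of the 147 as higher in pith parenchyma, against 0.223% of all 18832 genes tested, and 0 as higher in whole stem, against 4.36%. At an unadjusted p under 0.05 there were 40 genes, against 15.4% of all genes. DESeq2 called 14, all higher in pith parenchyma, and 8.81% of all genes in either direction. The median log2 difference over the set was 0.92, compared with -0.06 over all genes. For epidermis it was 0.68 over the set, so the fewer calls did not go with a smaller difference. The choice required high medians in these pith libraries, as it did in epidermis, so nothing is read from the direction of either contrast or from its share of calls. The count changed with single libraries, as did the calls over all genes. It was 23 without pith parenchyma replicate 2, 7 without replicate 3 and 5 without replicate 1. In these fits 12.8%, 7.78% and 8.00% of all genes were called in either direction. Without pith parenchyma replicate 4 it was 0, where 7.59% of all genes were called. It was also 0 with any 1 whole stem library left out. There the calls over all genes fell from 4.58% to between 0.0159% and 0.0791%. All 4 pith parenchyma libraries exceeded all 4 whole stem libraries in 13 genes, against 1.84%, and the reverse held in 0, against 16.6%.

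Sobic.009G105300 was the called gene with the largest difference whose libraries did not overlap. Its pith parenchyma values were 129, 181, 316 and 186 CPM, and whole stem had 63.4, 88.0, 83.6 and 92.5 CPM. The groups did not overlap. The log2 difference was 1.38 (SE 0.30, edgeR, Benjamini-Hochberg adjusted p = 0.0352). Among omissions of 1 library, the edgeR call was lost without pith parenchyma replicate 4 (adjusted p = 0.0568) or any whole stem library (adjusted p = 0.0737 to 0.139). With the replicate number as a block it was lost as well (edgeR, adjusted p = 0.249). Epidermis, at 141, 60.6, 160 and 38.9 CPM, overlapped whole stem.

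Against the vascular types, whole stem was higher in every called gene of the set. The calls numbered 66 for phloem, against 8.75% of all genes tested in that direction, 85 for vascular parenchyma, against 10.9%, and 73 for xylem sclerenchyma, against 7.26%, in edgeR. None of the 147 was called higher in phloem, vascular parenchyma or xylem sclerenchyma, against 4.62%, 8.75% and 2.06% of all genes tested. Median log2 differences of type minus whole stem over the set were -3.94, -3.73 and -2.67, against -0.16, -0.13 and -0.08 over all genes. They stayed at those values with the genes at 0 in a type set to the floor of 3 counts per library. Such genes numbered only 1, 5 and 3, too few to move a median over the set. The phloem count was 123 without phloem replicate 3 and 43 without whole stem replicate 4. In these fits 24.5% and 10.3% of all genes were called in either direction, against 13.4% with all libraries. Low vascular values were part of the choice, so nothing is read from the counts of calls. Nor do they measure distance from whole stem, since phloem had the largest median difference and the fewest calls.

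Some genes were present in every whole stem library and at or near 0 in a vascular type. Sobic.003G370000 was at 197, 112, 117 and 216 CPM in whole stem and had 1 count in all vascular parenchyma libraries together. The ratio of pooled CPM was 12384, with a 95% exact binomial counting interval of 2222 to 489161, and the Benjamini-Hochberg adjusted p from edgeR was 0.000311. In phloem this gene was at 0.722, 0, 30.2 and 6.73 CPM. Its difference from whole stem was not called there (edgeR, adjusted p = 0.0715), while that in xylem sclerenchyma was (edgeR, adjusted p = 0.0135). In pith parenchyma this gene split, at 165 and 269 CPM in replicates 1 and 4 and 0 and 15.4 CPM in replicates 2 and 3. Sobic.002G142300 was at 20.5, 20.2, 13.7 and 20.1 CPM in whole stem and at 0 in all 4 xylem sclerenchyma libraries, so that whole stem was at least 64.1-fold higher than the floor of 3 counts per library (edgeR, adjusted p = 0.0108). For Sobic.002G311000, at 0 in all phloem libraries, whole stem was at least 36.9-fold above that floor (edgeR, adjusted p = 0.00411). With the replicate number as a block, the calls for Sobic.002G142300 and Sobic.002G311000 were lost (edgeR, adjusted p = 0.161 and 0.159). That for Sobic.003G370000 was kept (edgeR, adjusted p = 0.00779).

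The whole stem replicates, whose values were not used in the choice, differed in the set. The median coefficient of variation over the 4 whole stem libraries was 32.3% for the 147 genes and 13.7% for the 5795 genes, at median whole stem levels of 50.8 and 63.9 CPM. Over replicates 1 to 3 it was 20.6% and 10.9%. Replicate 4 was the highest whole stem library in 101 of the 147 genes, or 68.7%, and in 22.3% of the 5795. Replicate 2 was the lowest in 78 genes, or 53.1%, and in 13.9% of the 5795. CPM in replicate 4 was 1.47 times the mean of the other 3 libraries at the median of the set, and 0.928 times at the median of the 5795 genes. The labels name no difference between these replicates, and these shares were not tested.

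**Figure D5:**
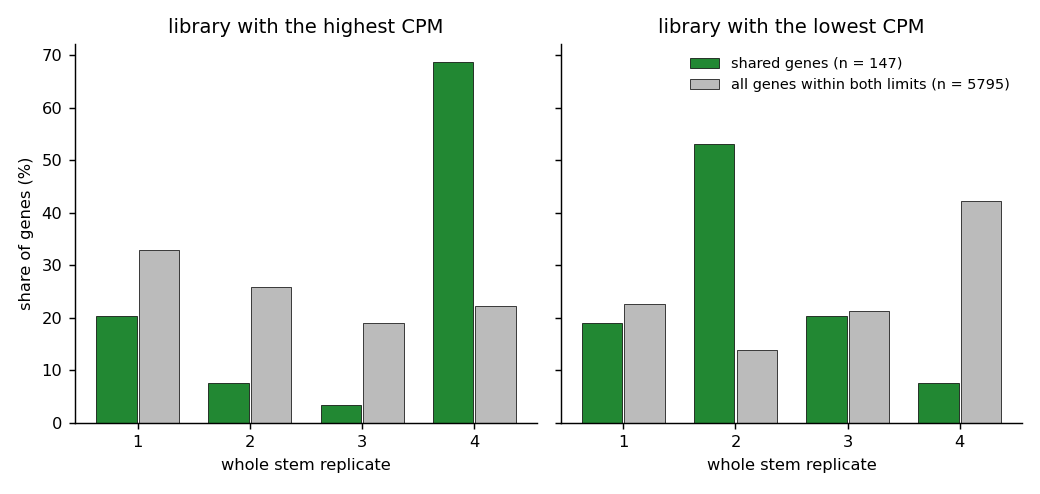
Share of genes (vertical axis, percent) for which each whole stem replicate had the highest (left) or lowest (right) CPM, for the 147 shared genes and for all 5795 genes within the same level and balance limits. Replicate 4 was highest for 68.7% of the shared genes and 22.3% of the larger set.

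The same replicate numbers stood out in pith parenchyma. Replicates 1 and 4 were the highest pair among pith libraries in 74 of the 147 genes, or 50.3%, and in 15.4% of the 5795. They were the highest pair among whole stem libraries in 59 genes, or 40.1%, against 14.0%. Both held in 38 genes, or 25.9%, against 3.09%. In epidermis, replicate 1 was the highest library in 82 genes, or 55.8%, against 30.6% of the 5795. Replicate 4 was the lowest in 61, or 41.5%, against 17.8%. Epidermis and pith parenchyma values were part of the choice, unlike those of whole stem. The labels do not say that a number marks a plant. The match was counted after the values were seen and was not tested.

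Spread within the captured types was larger still. The median coefficient of variation of the set was 65.0% in epidermis and 55.1% in pith parenchyma, compared with 54.4% and 37.8% for the 5795 genes. In phloem, vascular parenchyma and xylem sclerenchyma, where levels were low, it was 116%, 110% and 85.5%, compared with 42.6%, 36.9% and 41.0%. The highest pith library was at least 10 times the lowest in 48 genes, and the highest epidermis library in 31, compared with 1 gene in whole stem. In the vascular types, in the same order, this held in 114, 110 and 82 genes. It was not counted over the 5795 genes. Only 62 of the 147 genes were at or above 20 CPM in all 8 epidermis and pith libraries.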

How the data were processed

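The authors deposited expected counts per gene, estimated with Salmon per the table's name, for 24 libraries, without normalization. FastQC, Salmon and alevin stand in the submitters' processing notes. Tool versions, genome build and annotation were not given in the sources used here. Libraries were made by full-length cDNA amplification and sequenced as single-end reads of 150 bp, per the labels' protocols. Of the deposited values, 10.5% were not whole, and counts were rounded for the count models.

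CPM used library totals as deposited. All 147 genes passed the filter on low counts in every fit. Differential expression used edgeR 4.0.16 in R 4.3.3 (filterByExpr, TMM, robust quasi-likelihood F tests, Benjamini-Hochberg over all genes tested), calling genes at an adjusted p under 0.05 and a difference of 2-fold or more. The 5 captured types were fitted together, and each type against whole stem in a fit of 8 libraries. Alternatives were RLE size factors, no filter, DESeq2 1.42.0, limma 3.58.1 voom with quality weights, a replicate block and omission of libraries. On simulated data the fit of epidermis against whole stem recovered 2% of genes changed 4-fold, 40% of those changed 16-fold and 52% of those changed 64-fold, over 18876 genes, with 1 false call. Epidermis against pith parenchyma recovered 6%, 33% and 51% over 18854 genes.

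The genes and lists were chosen with earlier results of these data known. Without product names, the genes printed were the 2 with the highest lower median, the 2 with the largest ratio to the highest vascular median (vascular medians of 0 first, by lower median) and, per contrast with whole stem or between epidermis and pith parenchyma, the called gene of each direction with the largest fold change and no overlap. No pair of libraries held identical values. Fixed lists defined by product names could not be built. No column was left unmapped.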

Additional observations from a re-analysis of the deposited data

Results flagged for a closer look

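In groups of 4 libraries, 12 of the 58 sets of values examined had 1 library far from the other 3, by a criterion that chance meets in about 1 set in 20. The share of counts held by the 147 genes was 3.53% in whole stem replicate 4, against 2.13% to 2.37% in the other whole stem libraries. In 9 of the sets the other 3 libraries were at 0, so any count stood out. Sobic.006G264900 was at 1.62 CPM in phloem replicate 4, 3.54 CPM in vascular parenchyma replicate 2 and 0.145 CPM in xylem sclerenchyma replicate 4, and Sobic.002G311000 was at 0.0373 CPM in vascular parenchyma replicate 4 and 11.5 CPM in xylem sclerenchyma replicate 3. Sobic.003G136200 stood at 22.2 CPM in phloem replicate 3 and 0.186 CPM in vascular parenchyma replicate 4. Sobic.003G370000 had 0.0373 CPM in vascular parenchyma replicate 4 and 3.46 CPM in xylem sclerenchyma replicate 2, whose highest neighbour had 0.0364 CPM. Sobic.002G142300 was at 0.0439 CPM in vascular parenchyma replicate 3 and at 13.7 CPM in whole stem replicate 3, below 20.1 to 20.5 CPM in the other whole stem libraries.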

How the results depend on the processing

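The number of genes chosen stayed within 1.5 times of 147 for group means (200), TMM-scaled CPM (150), a level of 10 CPM (212) and ratios of 3 and 6 (208 and 102). It was 95 at a level of 40 CPM, 257 from replicates 1 and 2 alone and 93 from replicates 3 and 4 alone, and 123 to 173 when 1 library was left out. The fits on replicate pairs and the joint omission of libraries were added after seeing the data. The 137 genes called higher in epidermis and pith than in the vascular types became 54 in replicates 3 and 4 alone and 131 to 139 with 1 library left out. Of all genes, 3.29% and 14.3% to 17.5% were called in either direction in these fits. Between epidermis and pith parenchyma, the count of 0 was 12 with limma voom and 1 in replicates 1 and 2 alone, and 0 to 0 over omissions of 1 library. The shares of all genes called there were 8.55%, 2.80% and 1.70% to 2.67%.

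Against whole stem, DESeq2 raised the calls to 28 for epidermis, 14 for pith parenchyma and 109 for phloem, limma voom gave 105 for phloem, and RLE size factors gave 5 for pith parenchyma. In these contrasts DESeq2 called 19.2%, 8.81% and 20.8% of all genes, limma voom 20.0% and RLE size factors 4.59%. Leaving out epidermis replicates 1 and 2 gave 33 for epidermis, where 29.0% of all genes were called. Omission of 1 library gave 7 to 27 for epidermis, 0 to 23 for pith parenchyma and 43 to 123 for phloem. It gave 67 to 105 for vascular parenchyma and 54 to 86 for xylem sclerenchyma. The calls over all genes, in either direction, changed as well. Their share ran from 9.75% to 19.3% for epidermis and from 0.0159% to 12.8% for pith parenchyma. For phloem, vascular parenchyma and xylem sclerenchyma it was 10.02% to 24.5%, 14.6% to 26.4% and 6.72% to 14.4%. The cause of these changes was not tested. With the replicate number as a block, the counts were 2, 0, 36, 50 and 21 in the same order of types. Of all genes, 0.937%, 0.0372%, 3.68%, 5.93% and 0.508% were then called in either direction. Without the block these shares were 12.6%, 4.58%, 13.4%, 19.7% and 9.32%. The block ended the calls printed for Sobic.003G136200 (edgeR, adjusted p = 0.0775), Sobic.009G105300 (0.249), Sobic.002G311000 (0.159) and Sobic.002G142300 (0.161), but not that for Sobic.003G370000 (0.00779). Whether a number marks 1 plant across groups is not known from the labels. In 0 of 15 pairs of groups were all same-number correlations over 0.1 (range -0.135 to 0.22), so the numbers were not treated as pairs. A library correlated best with its own number, out of 4 numbers, in 41 of 120 cases. Pith parenchyma and whole stem had a same-number mean of 0.113, against -0.0397 for other numbers. Vascular parenchyma and xylem sclerenchyma had same-number values of 0.055 to 0.122, with a mean of 0.0844 against -0.0281. Epidermis and whole stem went the other way, at -0.0625 against 0.0214. Pairing by plant therefore remains undecided. Of 73 alternatives for single named genes and shares, 64 kept the call or moved by less than 1 SD and 9 lost it, and none changed sign. Depth limits a 0 to the floor of 3 counts, 0.0772 to 1.08 CPM per captured library.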

Other observations

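Identifiers of the 147 genes fell in all 10 numbered series of the Sobic scheme, in which the digits after the prefix stand for the chromosome. Series 3 held 25 of them (17.0%), series 2 held 23 and series 4 held 20. Series 1 held 17 (11.6%), compared with 20% of the 5795 genes within the same level and balance limits, and series 10 held 18 (12.2%), compared with 8.15%. Series 5 held 4 (2.72%, compared with 3.83%). These shares were not tested.

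Some members lay close to each other in identifier order, and the number expected by chance was not computed. Counting only genes above 0 in any library, 4 pairs lay within 5 places of each other and involved 7 genes. A run of 3 genes with consecutive places in series 7 had epidermis medians of 44.7, 57.0 and 40.8 CPM and pith parenchyma medians of 153, 188 and 69.7 CPM. Across the 8 epidermis and pith libraries, log2 values of neighbours in the run correlated at 0.908 and 0.845 (Pearson). The pairs outside the run correlated at -0.113 and -0.555. The run was picked out after its values were seen.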
